A study of Mus musculus with 12 samples.

Results

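The calcium pump of the sarcoplasmic reticulum, its small inhibitors and the calcium-binding proteins of muscle were followed here through 7 genes: Sln, Pln, Atp2a1, Atp2a2, Casq1, Casq2 and Pvalb. Every probe set whose platform annotation gives exactly 1 of these symbols was taken. The 7 are of 18194 genes with a probe set of their own, and they have 15 probe sets of 45101 on the array, or of 34958 that name a single gene. Atp2a2 has 6 of them, Pln 3, Sln 2, and Atp2a1, Casq1, Casq2 and Pvalb have 1 each. Of the 15 probe sets, 12 were at or above the median brightness of all single-gene probe sets (log2 7.96) and 3 were dimmer.

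Muscle fibres relax when the pump, called SERCA, moves calcium from the cytosol back into the sarcoplasmic reticulum, the internal calcium store. Sarcolipin (Sln) and phospholamban (Pln) are short membrane peptides that bind the pump and restrain it. Calsequestrins (Casq1, Casq2) hold calcium inside the store, and parvalbumin (Pvalb) binds it in the cytosol of fast fibres. Fast and slow fibres differ in the versions they use: Atp2a1 dominates in fast fibres, and Atp2a2 in slow fibres and in the heart. Casq1 is the form of fast fibres and is also present in slow fibres, which hold Casq2, the heart form, as well.

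Gene expression was measured on 12 Affymetrix arrays of gastrocnemius, the large calf muscle, each array from a different male mouse. Mini-muscle mice (n = 6) carry a heritable trait of small hindlimb muscles and came from line 3, and regular-muscle mice (n = 6) came from line 8. Both are closed lines bred for high voluntary wheel running (HR), sampled in generation 37 at 79 to 86 days of age (mean 84). Muscle from both limbs was pooled for mini-muscle mice, and regular-muscle mice gave 1 limb each, so trait, line and pooling cannot be told apart. Each kind of muscle is represented by 1 line.

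Values are MAS5 probe set intensities, given on the log2 scale unless stated, and each difference is the mini-muscle mean less the regular-muscle mean, with the standard error (SE) of the fit. A probe set passed the test at an adjusted p under 0.05 from limma with Benjamini-Hochberg adjustment over all 34958 single-gene probe sets. The brightness of a probe set depends on its probes as well as on the transcript, so levels are compared between groups and not between genes. Detection calls were not available, so an intensity above 0 does not show that a transcript was present. Array medians lay between 211.9 and 275.2 intensity units. The 8 skeletal muscle identity genes Ckm, Acta1, Mylpf, Tnnt3, Ryr1, Cacna1s, Myh4 and Mb averaged log2 13.38 to 17.60 in each group, which fits the labelled tissue. The log2 ratio of the 3' to the 5' control probe set of Gapdh, a check of RNA integrity, was -0.19 to -0.09 on mini-muscle and -0.24 to -0.15 on regular-muscle arrays (two-sided exact permutation p = 0.013), and that of Actb -0.76 to 0.02 and -0.61 to 0.02 (exact permutation p = 0.24).

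Transcripts of the pump system differed between the muscles in both directions. Sln, Casq2 and Atp2a2 rose in mini-muscle, Casq1 and Pvalb fell, and neither Pln nor Atp2a1 passed the test. Of the 15 probe sets, 5 rose, where 5.00% of all single-gene probe sets did, and 2 fell, where 3.91% did. In all, 7 of the 15 passed (46.7%), against 8.92% of all single-gene probe sets and 16.6% of those at or above the median brightness. By the brightest probe set of each gene, 5 of the 7 genes passed, against 11.1% of 18194 genes: 3 rose, where 6.27% did, and 2 fell, where 4.83% did. Mini-muscle and regular-muscle arrays were fully separated at 4 of the 15 probe sets (5.46% overall): 2 with mini-muscle higher (2.92%) and 2 with it lower (2.54%). The median difference was 0.27 over the 15 probe sets and 0.01 over all. The genes were chosen with earlier results of these data known, so these counts describe the 7 genes and are no evidence that they stand apart.

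**Figure D1:**
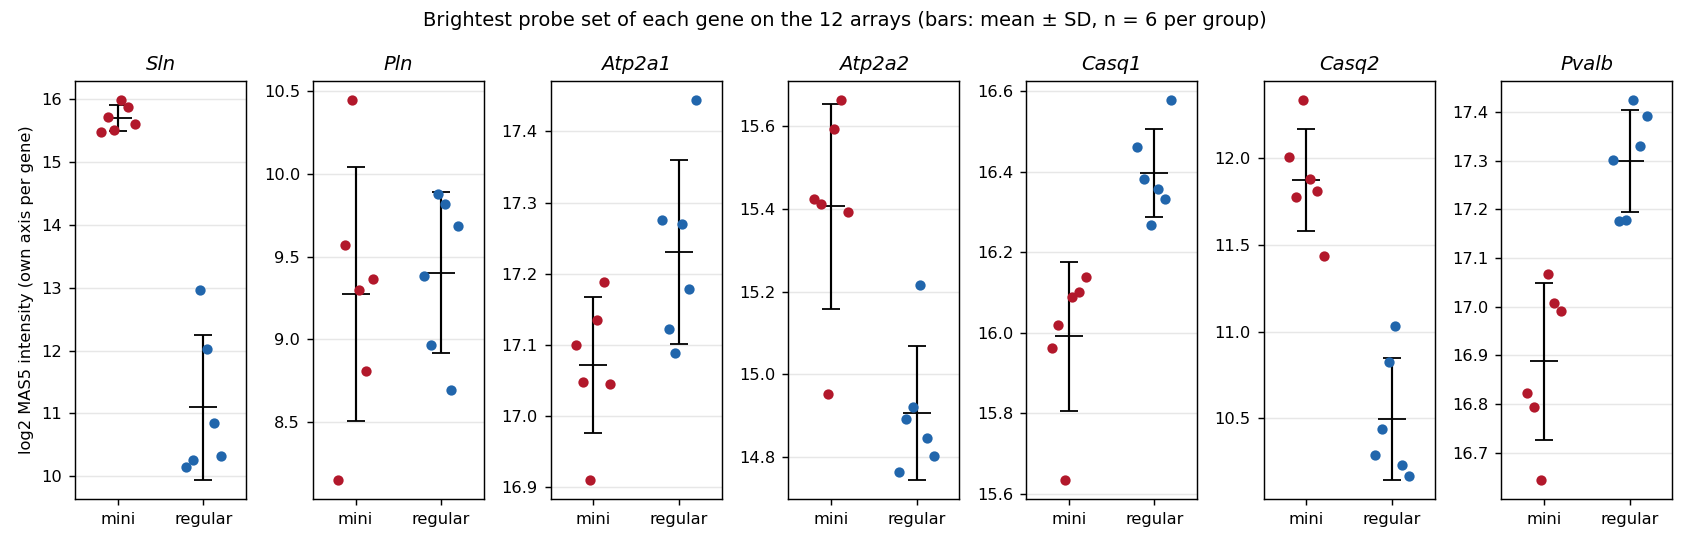
Log2 MAS5 intensity of the brightest probe set of each of the 7 genes (vertical axes differ by gene) on the mini-muscle arrays (red, left) and regular-muscle arrays (blue, right). Points are arrays, and bars give the mean ± SD of 6 arrays. Sln and Casq2 are higher, and Casq1 and Pvalb lower, on every mini-muscle array than on every regular-muscle array, while Pln and Atp2a1 overlap and Atp2a2 overlaps through 1 array of each group.

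Sln encodes sarcolipin, which binds the pump and lets it split ATP without moving as much calcium. Its bright probe set, 1420884_at, read linear intensities of 45779, 53981, 46607, 64932, 60062 and 50076 on mini-muscle replicates 1 to 6. On regular-muscle replicates 1 to 6 it read 1129, 1228, 8012, 4176, 1842 and 1276. The lowest mini-muscle array was 2.51 log2 units above the highest regular-muscle array. On the log2 scale the means were 15.70 ± 0.20 in mini-muscle and 11.09 ± 1.15 in regular muscle (SD, n = 6 each), a difference of 4.60 (SE 0.36, limma adjusted p = 1.0e-07). This was the rank 3 increase among all 34958 probe sets. The fold was 24.3, with a 95% interval of 14.5 to 40.7. Averaged with the other, dim probe set of Sln, the log2 difference was 3.30 (adjusted p = 1.6e-05), below the log2 interval of 3.86 to 5.35 for the bright one.

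The spread of Sln was unlike in the groups. Mini-muscle arrays spanned a 1.42-fold range and regular-muscle arrays a 7.10-fold range. Regular-muscle replicates 3 and 4 lay at log2 12.97 and 12.03 and the other regular-muscle arrays at 10.14 to 10.85. Without these 2 arrays the regular-muscle mean was 10.39 ± 0.31 and the difference 5.31 (limma adjusted p = 7.7e-14), an alternative chosen after seeing the data.

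The same 2 regular-muscle arrays were the highest of their group for Casq2 and for the brightest probe set of Pln. The summed intensity of 8 markers of immature or denervated fibres was 6849 on regular-muscle replicate 3, 4484 on replicate 4 and 3951 to 4705 on the others, against 14136 to 19677 on mini-muscle arrays. Of those 8 markers 6 rose in mini-muscle and 0 fell. Those with the smallest adjusted p were Myl4, a myosin light chain of embryonic muscle and atrium (difference 3.34), the myogenic factor Myog (1.99) and the adhesion molecule Ncam1 (2.39). No marker of the list was at 0. The part of immature or denervated fibres in the Sln difference was not tested.

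The other Sln probe set, 1420883_at, is dim. It averaged 7.12 ± 1.03 in mini-muscle and 5.13 ± 1.27 in regular muscle (SD, n = 6 each), and 5 of 6 mini-muscle arrays exceeded the highest regular-muscle array. Its difference of 1.999 (SE 0.68) did not pass (limma adjusted p = 0.083), and it lies below the median brightness, where differences are least certain.

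Pln encodes phospholamban, the inhibitor that restrains the pump in heart, slow fibres and smooth muscle until it is phosphorylated. None of its 3 probe sets passed. The brightest, 1450952_at, read 8.15, 9.57, 10.45, 9.30, 8.81 and 9.36 on mini-muscle replicates 1 to 6, against 9.38, 8.97, 9.88, 9.82, 8.69 and 9.68 on regular-muscle replicates 1 to 6. The groups overlapped almost fully, and mini-muscle held both the lowest and the highest array. The difference was -0.13 (95% interval -0.77 to 0.50, limma adjusted p = 0.89). For 1460332_at it was 0.15 (-0.29 to 0.58, adjusted p = 0.79) and for 1423359_at 0.27 (-0.25 to 0.79, adjusted p = 0.65). These intervals reach from 0.587 to 1.73 times the regular-muscle level, so a moderate difference in Pln was not detectable with 6 arrays a group.

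Mini-muscle replicate 3 was the highest mini-muscle array at all 3 Pln probe sets, at 10.45, 10.32 and 9.89. Without it the differences were -0.37, -0.05 and 0.08, and again none passed (adjusted p = 0.54 to 0.93). Of 7 markers of smooth muscle, which also holds Pln, Des (0.85) and Smtn (0.60) rose and 5 did not pass, among them the dim Cnn1 (-1.18, adjusted p = 0.24). The contractile proteins Acta2 (0.19, adjusted p = 0.43) and Myh11 (0.22, adjusted p = 0.48), named after their values were seen, were also among the 5. The summed intensity of all 7 markers was 81563 to 98461 on mini-muscle and 43941 to 61146 on regular-muscle arrays. Des, the filament protein desmin, is also a protein of skeletal fibres and was the brightest of the list. The part of smooth muscle in the Pln values was not tested.

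Myoregulin (Mrln), another inhibitor of the pump, is a micropeptide of skeletal muscle and was on the list of other pump regulators. It read 11.87, 11.55, 11.90, 11.86, 11.86 and 11.84 on mini-muscle replicates 1 to 6 and 12.90, 13.05, 13.30, 13.22, 13.28 and 12.90 on regular-muscle replicates 1 to 6. Every mini-muscle array lay below every regular-muscle array. Mrln was 2.45-fold lower in mini-muscle (difference -1.29, SE 0.09, limma adjusted p = 3.8e-08). Thus 1 inhibitor transcript rose, 1 fell and 1 did not pass.

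**Figure D2:**
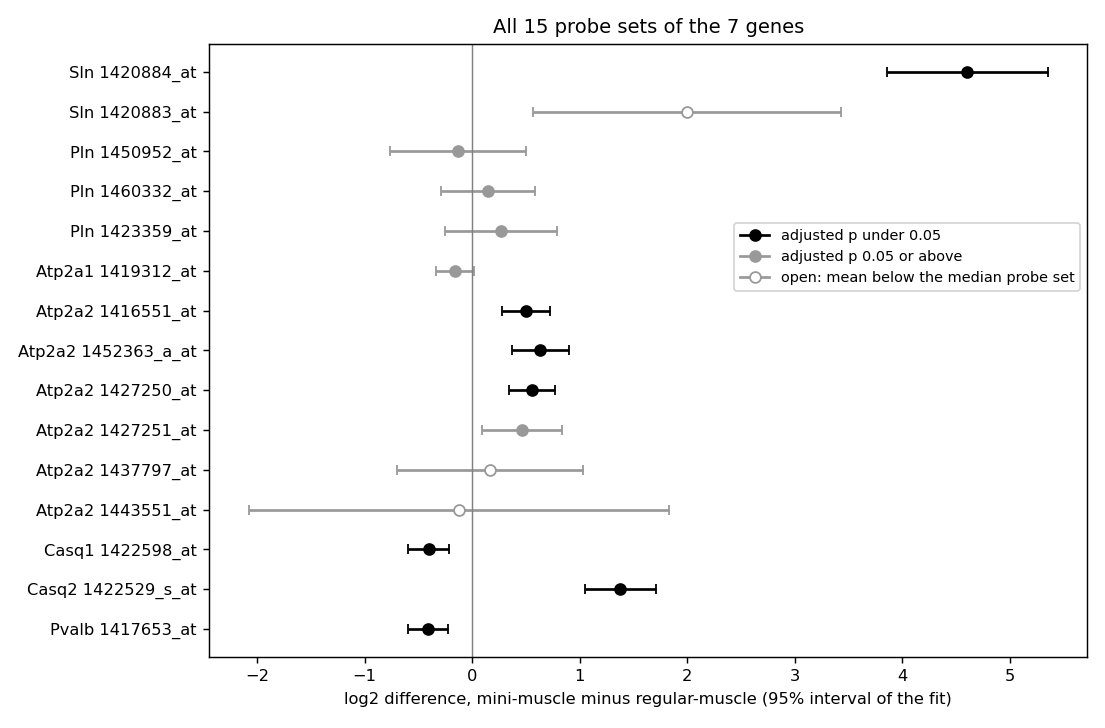
Log2 difference, mini-muscle minus regular-muscle, with the 95% interval of the fit for each of the 15 probe sets (horizontal axis), grouped by gene from top to bottom. Black points passed at an adjusted p under 0.05, grey points did not, and open points are probe sets with a mean below the median probe set. The 3 brightest Atp2a2 probe sets lie at 0.50, 0.64 and 0.56 with short intervals, while the dimmest spans -2.07 to 1.83.

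Atp2a1 encodes SERCA1, the pump of fast fibres. Its single probe set read 17.10, 17.05, 16.91, 17.13, 17.19 and 17.04 on mini-muscle replicates 1 to 6 and 17.28, 17.12, 17.09, 17.27, 17.18 and 17.44 on regular-muscle replicates 1 to 6. Of the mini-muscle arrays 3 lay below the lowest regular-muscle array, and the others overlapped. The difference was -0.16 (95% interval -0.33 to 0.02, limma adjusted p = 0.32), which allows a level as low as 0.793 of that in regular muscle. After quantile normalization the difference was 0.01 (adjusted p = 0.94), so no direction can be given for Atp2a1.

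Atp2a2 encodes SERCA2, the pump of slow fibres and heart. The brightest probe set, 1416551_at, read 15.42, 15.41, 14.95, 15.59, 15.66 and 15.39 on mini-muscle replicates 1 to 6, against 14.76, 14.89, 14.92, 15.22, 14.85 and 14.80 on regular-muscle replicates 1 to 6. Mini-muscle replicate 3 was low and regular-muscle replicate 4 high, and the remaining arrays were separated. Atp2a2 was 1.41-fold higher in mini-muscle (difference 0.50, SE 0.11, limma adjusted p = 0.0043).

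The next brightest Atp2a2 probe sets gave similar sizes. 1452363_a_at averaged 14.42 ± 0.22 in mini-muscle and 13.79 ± 0.31 in regular muscle (SD, n = 6 each; difference 0.64, SE 0.13, adjusted p = 0.0025). 1427250_at averaged 12.16 ± 0.16 and 11.61 ± 0.20 (difference 0.56, SE 0.10, adjusted p = 0.0012). At both, 5 of 6 mini-muscle arrays exceeded every regular-muscle array. 1427251_at differed by 0.46 without passing (adjusted p = 0.13). The dim 1437797_at and 1443551_at differed by 0.17 and -0.12, with intervals of -0.70 to 1.03 and -2.07 to 1.83 that settle no direction. Averaged over all 6 probe sets, Atp2a2 differed by 0.37 and did not pass (adjusted p = 0.29). The call of 1416551_at was also lost with each array centred at its median (adjusted p = 0.053) and without an intensity trend in the variance model (adjusted p = 0.072).

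A constant scaling factor of an array cancels in the ratio of Atp2a2 to Atp2a1 within it, whereas quantile normalization can still move it (log2 difference 0.50 after it). With the deposited values the ratio was 1.58-fold higher in mini-muscle (log2 difference 0.66, 95% interval 0.41 to 0.90). Every mini-muscle array exceeded every regular-muscle array. A two-sided exact permutation test gave p = 0.0022, the smallest it can give, and adjusted p = 0.0022 over 4 such ratios.

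Calsequestrin is the main calcium-binding protein inside the sarcoplasmic reticulum, with Casq1 found in fast and slow fibres and Casq2 in heart and slow fibres. The 2 genes moved in opposite directions, so the sequences just upstream of them are set side by side. RefSeq promoter windows (GRCm38.p6, 250 bases before to 50 after the start site, 300 in all) were matched by symbol for 5 of the 7 genes, and not for Sln and Atp2a2. The windows of Casq1 (chr1:172219846-172220145, minus strand), Casq2 (chr3:102086165-102086464, plus strand) and the upstream of 2 starts of Pvalb, the other gene that fell (chr15:78206351-78206650, minus strand) read as follows, 5′ to 3′ on the gene's strand. Capitals mark E-boxes, the motif CANNTG bound by myogenic factors, and matches to the MEF2 consensus, a motif of muscle promoters, on either strand. No 2 matches overlapped.
Casq1: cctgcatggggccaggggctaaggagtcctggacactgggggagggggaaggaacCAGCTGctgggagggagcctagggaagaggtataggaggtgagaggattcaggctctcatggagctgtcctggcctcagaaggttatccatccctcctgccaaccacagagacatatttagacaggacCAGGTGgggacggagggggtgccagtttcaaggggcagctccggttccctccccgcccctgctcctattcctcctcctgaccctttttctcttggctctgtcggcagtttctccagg
Casq2: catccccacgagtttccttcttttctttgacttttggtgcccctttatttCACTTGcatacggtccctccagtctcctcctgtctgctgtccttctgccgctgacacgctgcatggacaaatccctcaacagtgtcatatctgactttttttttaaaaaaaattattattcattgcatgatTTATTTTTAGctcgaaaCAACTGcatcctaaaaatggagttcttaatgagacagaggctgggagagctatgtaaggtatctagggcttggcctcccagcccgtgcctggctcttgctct
Pvalb: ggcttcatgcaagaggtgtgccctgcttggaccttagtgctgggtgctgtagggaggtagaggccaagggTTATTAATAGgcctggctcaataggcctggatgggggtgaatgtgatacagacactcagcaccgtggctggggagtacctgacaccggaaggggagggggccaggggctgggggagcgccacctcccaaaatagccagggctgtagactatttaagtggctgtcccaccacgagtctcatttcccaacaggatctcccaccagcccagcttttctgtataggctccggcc

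Casq1 and Casq2 each held 2 E-boxes, and this Pvalb window held 0, while the window of its other start held 2. Casq2 held 1 MEF2 match, whose first base lay at position -69 from the start site, and Pvalb held 1 at position -180. Of 32851 promoter windows in the RefSeq set, 72.3% held an E-box and 3.19% a MEF2 match. GC content was 60.3% for Casq1, 44.7% for Casq2 and 58.3% for Pvalb. A match is a description of letters, and these counts were not set against the expression values.

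Casq2 read 12.005, 11.77, 12.34, 11.88, 11.81 and 11.43 on mini-muscle replicates 1 to 6, against 10.29, 10.44, 10.82, 11.03, 10.23 and 10.17 on regular-muscle replicates 1 to 6. All mini-muscle arrays were above all regular-muscle arrays, with a gap of 0.40 between the groups. Casq2 was 2.60-fold higher (difference 1.38, SE 0.16, limma adjusted p = 8.4e-06). Its probe set has the suffix _s_at, a class that can match more than 1 transcript.

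Atp2a2 and Casq2 rose beside markers of slow fibres. Of 10 such markers 8 rose, among them the slow troponin T Tnnt1 (difference 0.95), the slow tropomyosin Tpm3 (0.75) and the slow myosin heavy chain Myh7 (0.99), and 1, the dim Myl6b (-1.95, named after its value was seen), fell. Their summed intensity was 298786 to 415338 on mini-muscle and 164819 to 243237 on regular-muscle arrays, with regular-muscle replicate 4 the highest of its group, and no marker was at 0. In bulk muscle, more slow fibres and more transcript per fibre cannot be told apart. The part of slow fibres in the Atp2a2 and Casq2 differences was not tested.

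Casq1 moved the other way. It read 15.96, 16.02, 15.63, 16.09, 16.10 and 16.14 on mini-muscle replicates 1 to 6, against 16.46, 16.38, 16.27, 16.36, 16.33 and 16.58 on regular-muscle replicates 1 to 6. Mini-muscle replicate 3 was the lowest of all, and the groups did not overlap, with a gap of 0.13. Casq1 was 1.32-fold lower in mini-muscle (difference -0.41, SE 0.09, limma adjusted p = 0.0059). The ratio of Casq2 to Casq1 within arrays was 3.44-fold higher (log2 difference 1.78, 95% interval 1.21 to 2.36, exact permutation p = 0.0022, adjusted over 4 ratios p = 0.0022), and it was highest on mini-muscle replicate 3. Both genes had already separated the groups, in opposite directions. The separation of this ratio and its p-value follow from that and add no evidence.

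Pvalb encodes parvalbumin, the soluble calcium buffer that speeds relaxation of fast fibres. It read 16.82, 16.79, 16.64, 17.07, 17.01 and 16.99 on mini-muscle replicates 1 to 6, against 17.30, 17.18, 17.18, 17.42, 17.33 and 17.39 on regular-muscle replicates 1 to 6. The groups were separated by 0.11. Pvalb was 1.33-fold lower (difference -0.41, SE 0.09, limma adjusted p = 0.0046). Its ratio to Atp2a1, another bright fast-fibre gene of the set, was 1.19-fold lower (log2 difference -0.25, 95% interval -0.37 to -0.14, exact permutation p = 0.0022, adjusted over 4 ratios p = 0.0022). The intensities of these fast-fibre genes thus did not change by the same factor, and whether the transcripts did was not tested.

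Casq1 and Pvalb are among the brightest probe sets of the array, where the scaling of arrays matters. The 89 probe sets with a mean above log2 16 had a median difference of -0.11 as deposited and of 0.01 after quantile normalization. After that normalization Casq1 differed by -0.32 (adjusted p = 0.026) and Pvalb by -0.29 (adjusted p = 0.0096). Both calls were lost with median-centred arrays (adjusted p = 0.14 and 0.20) and without an intensity trend (adjusted p = 0.080 and 0.062). Of 10 fast-fibre markers 5 fell, among them Myh4 (-1.33), Myoz1 (-0.51) and Actn3 (-0.36), and 1, Myh1 (0.29, named after its value was seen), rose. The Myh1 groups overlapped. Another bright probe set of Myh1 differed by 0.001 (limma adjusted p = 0.997) and a dim one by 2.90 (adjusted p = 0.0021). The other Myh4 probe set differed by -3.12 (adjusted p = 2.6e-09). Of the 10 fast-fibre markers, 2 passed with median-centred arrays and 2 without the trend. Their summed intensity was 1.11e+06 to 1.31e+06 on mini-muscle and 1.37e+06 to 1.65e+06 on regular-muscle arrays, with no marker at 0, and the part of fast fibres in the Casq1 and Pvalb differences was not tested.

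**Figure D3:**
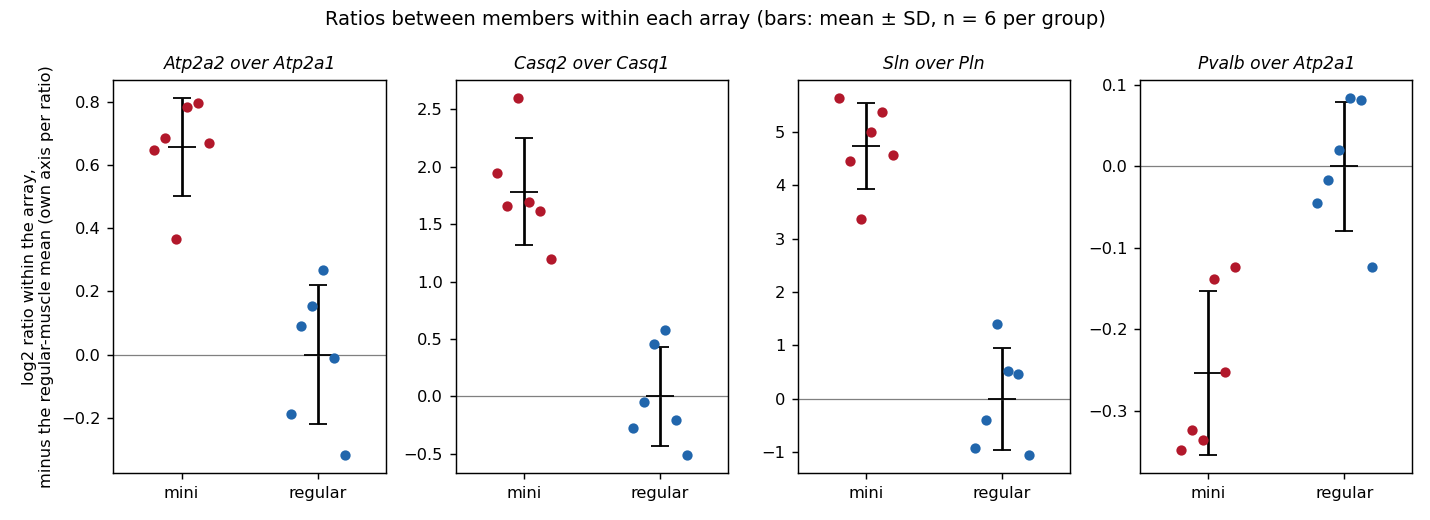
Log2 ratio between a pair of the genes within each array, minus the mean of the regular-muscle arrays (vertical axes differ by ratio), for mini-muscle (red, left) and regular-muscle arrays (blue, right). Points are arrays and bars the mean ± SD of 6. Atp2a2 over Atp2a1, Casq2 over Casq1 and Sln over Pln lie higher on all mini-muscle arrays than on all regular-muscle arrays, and Pvalb over Atp2a1 lies lower. For Pvalb over Atp2a1 the highest mini-muscle array (-0.124) and the lowest regular-muscle array (-0.123) nearly touch.

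The 2 small inhibitors also changed unequally. Sln relative to Pln, by their brightest probe sets, was 26.6-fold higher in mini-muscle (log2 difference 4.73, 95% interval 3.60 to 5.87, exact permutation p = 0.0022, adjusted over 4 ratios p = 0.0022). When each gene was averaged over its probe sets, the log2 difference was 3.21 (exact permutation test, adjusted p = 0.0029). The groups did not overlap for any of the 4 ratios, but for Pvalb over Atp2a1 they nearly touched. The highest mini-muscle array lay at log2 -0.0537 and the lowest regular-muscle array at -0.0528. For Casq2 over Casq1 and for Sln over Pln, the ranges of the single genes fixed the separation of the groups in advance. Their exact p-values therefore restate the single-gene results.

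Among arrays of 1 group the genes varied to different degrees. By the brightest probe sets, the SD over mini-muscle arrays was 0.10 for Atp2a1, 0.16 for Pvalb and 0.19 for Casq1, and 0.77 for Pln. Over regular-muscle arrays it was 0.13, 0.10 and 0.11 for the same 3 genes, 0.48 for Pln and 1.15 for Sln. Mini-muscle replicate 3 stood apart across the set: relative to its group mean it was lowest for Atp2a1 (-0.16), Atp2a2 (-0.45), Casq1 (-0.36) and Pvalb (-0.24) and highest for Casq2 (0.46) and Pln (1.17). The summed fast-fibre markers were also lowest on that array, at 1.11e+06. So were the sums for skeletal muscle identity (834508), calcium release (373167) and other calcium pumps, exchangers and entry (21259), while that of heart markers was highest (1453). The sums for slow, immature or denervated, smooth muscle and pump regulator genes were neither lowest nor highest among mini-muscle arrays. Without mini-muscle replicate 3 Atp2a2 differed by 0.59, Casq1 by -0.33, Casq2 by 1.28 and Pvalb by -0.36, and all 4 calls held (limma adjusted p = 2.1e-04, 0.0083, 2.1e-05 and 0.0091).

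**Figure D4:**
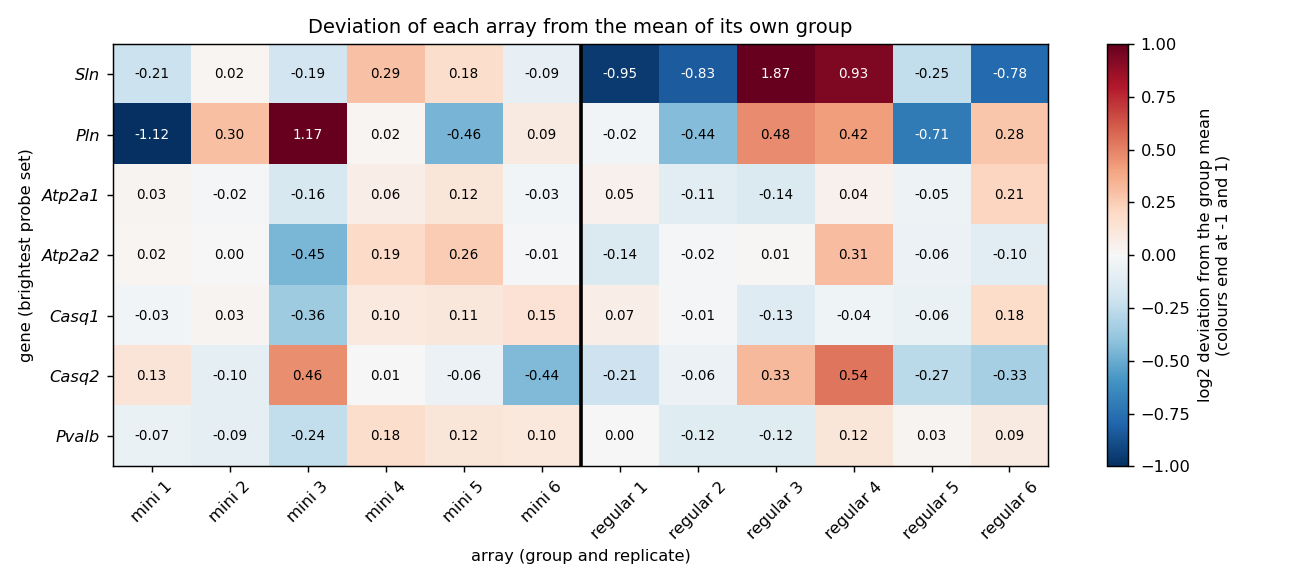
Log2 deviation of each array from the mean of its own group for the brightest probe set of each of the 7 genes (rows), with mini-muscle arrays left of the black line and regular-muscle arrays right of it. Red is above and blue below the group mean, and colours end at -1 and 1. Regular-muscle replicates 3 and 4 are high for Sln (1.87 and 0.93), Pln (0.48 and 0.42) and Casq2 (0.33 and 0.54), and mini-muscle replicate 3 is high for Pln and Casq2 and low for both pumps, Casq1 and Pvalb.

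For the genes that passed and whose groups did not overlap, the most similar profiles were sought among 9096 other genes. These were genes at or above the median brightness of all genes, so dim genes could not be chosen. Likeness was the root mean square (RMS) difference between centred log2 profiles over the 12 arrays. Nearest to Sln were Ankrd1, a stress-responsive repeat protein of the sarcomere (RMS 0.40), the protease inhibitor Serpinb1a (0.52) and Myl4 (0.82). Nearest to Casq2 were Myom3, an M-band protein (0.23), the acetyl-CoA synthetase Acss2 (0.24) and the slow troponin I Tnni1 (0.24). Nearest to Casq1 was Pvalb itself (0.090), followed by lactate dehydrogenase A, Ldha (0.092), and the fast-fibre alpha-actinin Actn3 (0.092). Nearest to Pvalb were Actn3 (0.063), the selenoprotein Selenow (0.071) and the fast myosin light chain Mylpf (0.072). These distances describe the 12 arrays and carry no test.

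The wider calcium machinery was read from 3 lists of 53 genes, of which 47 had a probe set of their own. By their brightest probe sets 4 rose, 8 fell and 35 did not pass. The 12 that passed are 25.5% of the 47, against 11.1% of all genes, and the median difference was 0.10. The 11.1% is no like background, because the lists are bright. At or above the median brightness lay 18 of 20 release genes, 11 of 14 other pump and entry genes and 13 of 13 pump regulators. Of all single-gene probe sets that bright, 16.6% passed. With 1 probe set per gene and dim genes left out, 16 list genes passed, and 2426 genes in the whole series. Fewer genes were tested in that alternative, so its counts cannot be set beside the shares above. No enrichment can be read from these counts.

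Among 13 other regulators of the pump, 3 fell and 1 rose. Besides Mrln, Camk2a, a calmodulin-dependent kinase of the family that phosphorylates phospholamban, was 2.20-fold lower (difference -1.14, SE 0.13, limma adjusted p = 7.5e-06). Ppp1r1a, an inhibitor of the phosphatase that removes such phosphates, was 2.04-fold lower (difference -1.03, SE 0.12, adjusted p = 1.5e-05). For both, no mini-muscle array reached the regular-muscle range. The one that rose, named after its value was seen, was the kinase isoform Camk2d (0.53, adjusted p = 0.022), whose groups overlapped, whose call was lost in 8 of 19 alternatives and whose mean over 7 probe sets did not pass (0.38, adjusted p = 0.54). Another bright probe set of Camk2d rose by 0.92 and passed (adjusted p = 0.0010), and its remaining ones, at -0.07 to 0.56, did not. Averaged over its 6 probe sets, some of them dim, Camk2a differed by -0.46 and did not pass (adjusted p = 0.26). Among its other probe sets -1.25 passed (adjusted p = 1.0e-04), and -0.89, -0.48, -0.05 and 1.02 did not. The catalytic subunits of protein kinase A, Prkaca (-0.03, adjusted p = 0.89) and Prkacb (0.10, adjusted p = 0.72), and calreticulin, Calr (-0.05, adjusted p = 0.84), did not pass and were named after their values were seen.

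Of 20 genes of calcium release and the triad, the contact between surface membrane tubules and the store, 2 rose, 4 fell and 14 did not pass. The junctophilin Jph1, which holds the triad together, fell by 0.66 (adjusted p = 5.0e-05), while its dimmer probe set differed by 0.10 in the other direction without passing (adjusted p = 0.82), and the mean of both did not pass (-0.28, adjusted p = 0.083). Asph, whose locus also encodes the store protein junctin, fell by 0.37 (adjusted p = 9.3e-04), although other probe sets of it gave -0.59 and 0.75 and passed, and the mean of its probe sets turned the direction and was not called (0.15, adjusted p = 0.62). Fkbp1a, a small protein that binds the release channel, fell by 0.38 (adjusted p = 0.0012), and the mean over its 5 probe sets did not pass (-0.14, adjusted p = 0.56). Its other probe sets gave -0.34 and -0.37, which passed, and -0.24 and, at a dim one, 0.65, which did not. With median-centred arrays neither Asph nor Fkbp1a was called (adjusted p = 0.068 and 0.077), and 2 of the 20 genes passed. The remaining calls, chosen for mention once their values were known, were the scaffold Trdn (-0.39), the voltage sensor Cacna1s (0.45) and the calcium sensor S100a1 (0.40). Trdn was not called after quantile normalization (-0.32, adjusted p = 0.062), and another probe set of S100a1 differed by 0.07 (adjusted p = 0.88). Other Trdn probe sets gave -0.64 and -0.53, which passed, and 0.29, 0.38 and 0.57, which did not. The channel gene Tmem38b, named after its values were seen, did not pass by its brightest probe set (0.23, adjusted p = 0.21). Its other probe sets gave 0.59 and 0.32, which passed, and 0.01, which did not.

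Of 14 other pumps, exchangers and entry genes 1 rose and 1 fell. Stim2, a sensor of low calcium in the store, was 2.09-fold lower (difference -1.06, SE 0.13, limma adjusted p = 1.3e-05). Micu2, a gatekeeper of the mitochondrial calcium uniporter, was 1.45-fold higher (difference 0.54, SE 0.07, adjusted p = 6.2e-05). The related Stim1 differed by 0.34 and did not pass (adjusted p = 0.085). The remaining SERCA gene, Atp2a3, differed by 0.23 (adjusted p = 0.74, named after its value was seen).

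**Figure D5:**
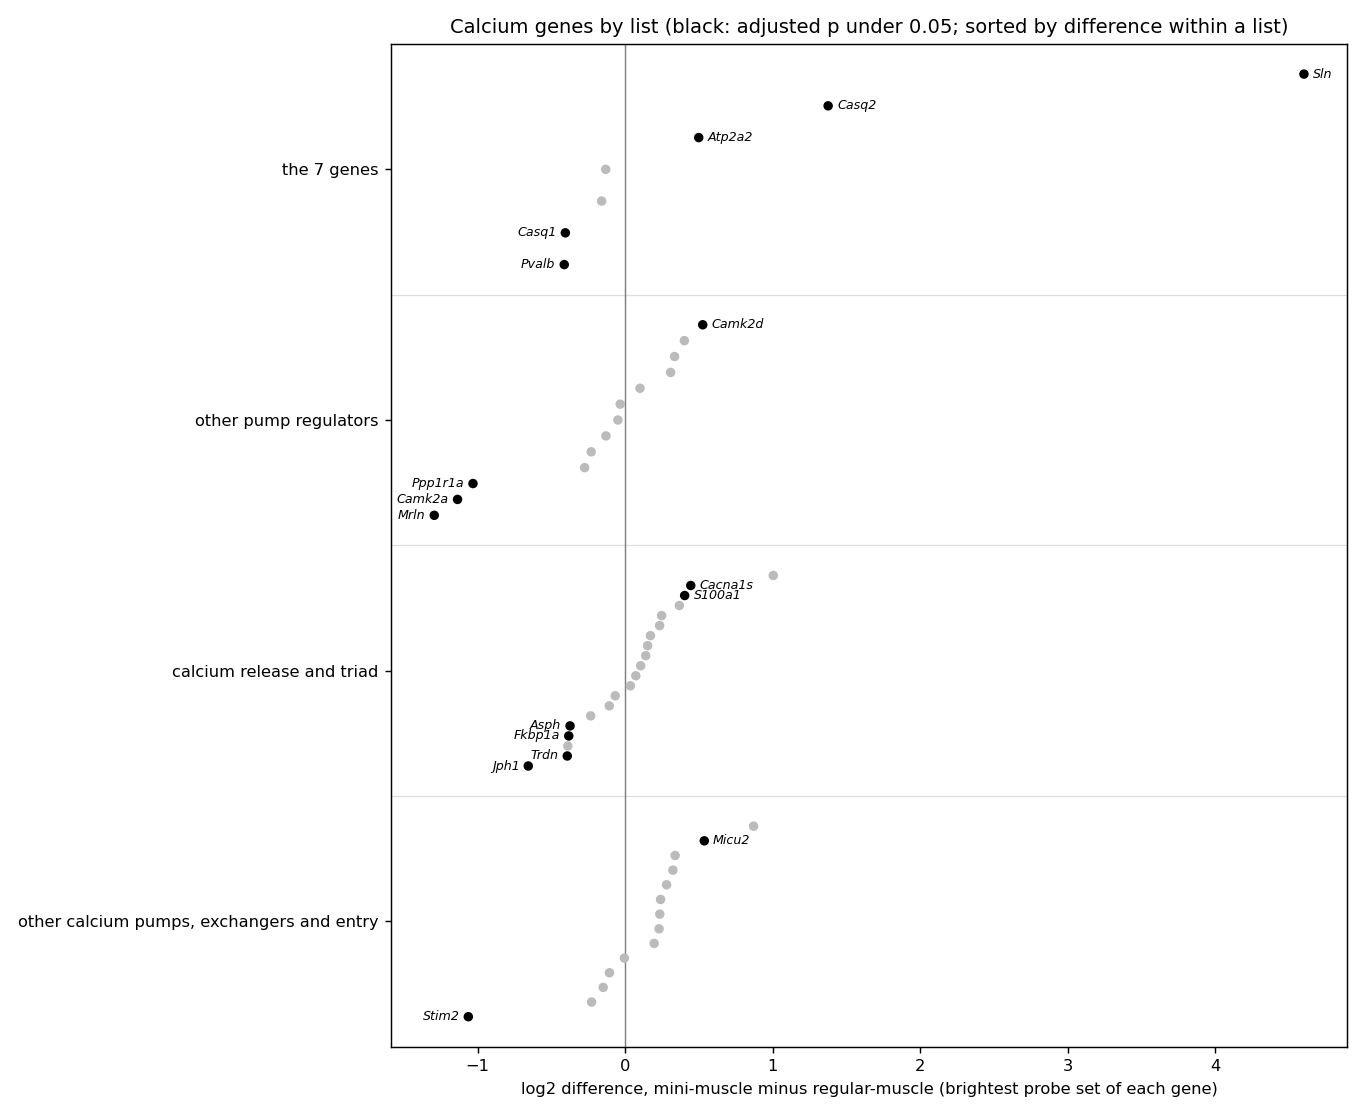
Log2 difference, mini-muscle minus regular-muscle, of the brightest probe set of each gene (horizontal axis), for the 7 genes and 3 lists of other calcium genes (rows), sorted by difference within a row. Black points passed at an adjusted p under 0.05 and carry the gene's name, and grey points did not. Sln lies at 4.60, apart from all others, and Mrln, Camk2a and Ppp1r1a are the lowest of the pump regulators.

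Because Sln, Pln, Casq2 and Atp2a2 are also heart genes, 6 heart markers were read. Nppa, Nppb, Myl7, Tnni3 and Nkx2-5 lay below the median brightness and did not pass (adjusted p = 0.50 to 0.97). Myh6, the alpha myosin heavy chain, averaged 8.75 ± 0.28 in mini-muscle and 7.46 ± 0.92 in regular muscle (SD, n = 6 each; difference 1.29, adjusted p = 0.036), a call lost in 6 of 12 cases without 1 array. The Myh6 call was also lost with median-centred arrays, with gene means and without the intensity trend. Its other, dim probe set differed by 0.93 and did not pass (limma adjusted p = 0.71). The summed intensity of the list was 939 to 1453 on mini-muscle and 706 to 1343 on regular-muscle arrays. No marker was at 0, which does not show detection, and the part of heart-type transcripts in the Sln difference was not tested.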

How the data were processed

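The authors deposited 1 linear probe set intensity per array, and the submitters' processing notes name MAS5, without version or settings. Averaged over the arrays, the trimmed mean of the deposited intensities was 800.0 (2% trimmed at each end), as scaling of all arrays to a common target would give. Log2 of these values was compared between groups with limma 3.58.1 in R 4.3.3 (lmFit, eBayes with an intensity trend, two-sided), over all 34958 single-gene probe sets with no filter. Gene names come from the platform annotation. The number of arrays limits the precision.

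The genes, lists and alternatives were chosen with earlier results of these data known. Named are the 7 genes, up to 3 genes of each list by adjusted p, all heart and skeletal identity markers, and the 3 nearest profiles. Alternatives were quantile normalization, median centring, an offset of 64, a filter on dim probe sets, 1 probe set or the mean per gene, no trend, and leaving out arrays.

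Tested on simulated data for this comparison (34958 probe sets, 200 changed), the fit called 21.2% of 52 changes of 1.5-fold and 63.8% of 47 changes of 2-fold above the median brightness, and 11% and 31% of all 100 of each size. It made 0 sign errors, and 4 of its 46 calls were unchanged probe sets. In the real data 3117 probe sets passed. With so few changed probe sets the adjustment was stricter in the simulation, so its shares do not give the sensitivity of the real comparison.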

Additional observations from a re-analysis of the deposited data

Results flagged for a closer look

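Among 30 sets of 6 arrays (15 probe sets in each group), 6 had an array far from the others, its gap to the next, over the group's range, exceeding Dixon's 95% limit. For a single set chance gives about 1 in 20. The sets share arrays and genes, so the number flagged cannot be weighed against that share. On mini-muscle replicate 3, Pln was high at 1460332_at (10.32, next 9.34) and at 1423359_at (9.89, next 8.95), and Casq1 was low (15.63, next 15.96). Mini-muscle replicate 6 was low at the dim Atp2a2 probe set 1437797_at (6.77, next 7.66). Regular-muscle replicate 4 was high at the Atp2a2 probe set 1416551_at (15.22, next 14.92), and regular-muscle replicate 3 was low at 1427251_at of the same gene (8.49, next 9.21). These are values of single arrays, and no cause was tested.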

How the results depend on the processing

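Leaving out any 1 array changed no call of a brightest probe set. Sln and Casq2 kept direction and call under every alternative run, and so did all 4 ratios, but the mean of all probe sets lowered Sln to 3.30 and Sln over Pln to 3.21. Atp2a2 (1416551_at) was not called with median centring (0.51), with the mean of its probe sets (0.37) or without an intensity trend (0.50), nor was 1452363_a_at in the last (0.64). Casq1 and Pvalb were not called with median centring (-0.39 and -0.40) or without the trend (-0.41 and -0.41). Atp2a1 changed sign with quantile normalization (0.014). Pln 1450952_at changed sign with the mean of its probe sets (0.094), without regular-muscle replicates 3 and 4 (0.091) and over single omissions (-0.37 to 0.093), as did Pln 1460332_at (-0.046 to 0.23), Atp2a2 1437797_at (-0.11 to 0.37) and Atp2a2 1443551_at (-0.66 to 0.35, and 0.29 without those 2 arrays). Sln 1420883_at was called with an offset of 64 (1.01, adjusted p = 0.045) and in 1 of 12 omissions (1.60 to 2.38). The higher calls, 5 as reported, were 3 with 1 probe set per gene, 2 with gene means and 3 without the trend. The lower calls, 2 as reported, were 0 with median centring (limma, adjusted p = 0.14 and 0.20) and 0 without the trend (0.080 and 0.062). Over all probe sets 3117 calls became 2028 with median centring, 1702 without the trend and 1338 with gene means. The 12 pathway calls became 7 with median centring and 7 with gene means. Gene means and 1 probe set per gene test fewer features by construction; otherwise the cause was not tested. No paired analysis was possible because the replicate numbers only name arrays. Dim probe sets have the widest intervals.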
